A study of Mus musculus with 18 samples.

Results

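The comparison described here set CD8+ T cells sorted as 41BB+ against CD8+ T cells sorted as 41BB-, each after 72 h of stimulation in culture. It took the 3 libraries of each population at that time, 6 of the 18 libraries of the series, and covered every gene with enough counts, 13150 of 55487. All cells came from spleens and lymph nodes of wild-type C57BL/6J mice, and no age was found in the sources used here. The study calls the 41BB+ cells Tpam and the 41BB- cells conventional CD8+ T cells, and its other libraries hold both populations straight after the sort (0 h) and after 24 h. The sort was made once, on fresh cells, so the names 41BB+ and 41BB- at 72 h refer to what the cells carried before culture. Both populations received the same stimulus, beads coated with antibodies to CD3 and CD28. The design text describes biological triplicates, without saying whether a replicate was 1 animal or a pool, so the p-values measure only the spread between these libraries. The question addressed was how the activated progeny of the 2 populations differed in their transcripts late in the culture.

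41BB (CD137, encoded by Tnfrsf9) is a costimulatory receptor of the tumor necrosis factor receptor family that T cells display for a limited time after their antigen receptor has been engaged. A stimulated CD8+ T cell leaves quiescence by raising MYC, glycolysis, nucleotide and ribosome synthesis and DNA replication, while transcription factors and homing receptors of the resting state, such as LEF1, KLF2 and the interleukin 7 receptor, are reduced. Low oxygen stabilizes the factor HIF-1, which drives glycolytic genes and others such as Bnip3 and Vegfa.

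Levels are counts per 1000000 counts of the library (CPM), given for replicates 1, 2 and 3 in that order, and differences are log2 fold changes of 41BB+ over 41BB-, negative where 41BB+ cells were lower. CPM are shares of a library, so RNA per cell was not measured, and in these bulk samples fewer cells of a type and less RNA per cell cannot be told apart. A gene is called higher or lower where the adjusted p of edgeR's quasi-likelihood test (Benjamini-Hochberg, all 13150 genes) was under 0.05. Total counts of the 6 libraries ran from 3436920 to 4239795, with 17431 to 18624 genes detected. Mitochondrial genes took 10.5% to 11.4% of counts in 41BB+ and 8.84% to 9.56% in 41BB- libraries, without overlap. A single gene, Gm23935, took 9.19% to 10.1% of counts in 41BB+ and 7.90% to 9.35% in 41BB- libraries, with overlap. With mitochondrial genes, ribosomal protein genes and Gm23935 removed before scaling, 924 genes were higher and 1554 lower, close to the counts given below.

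Both populations carried the transcripts of CD8+ T cells at 72 h. Cd8a stood at 459, 413 and 366 CPM in the 41BB+ libraries and 438, 374 and 323 CPM in the 41BB- libraries (log2 fold change 0.16, SE 0.12, adjusted p = 0.389), and the groups overlapped. Cd3e, a signaling chain of the T cell receptor complex, was at 264, 242 and 279 CPM and 277, 257 and 273 CPM (log2 fold change -0.0029, adjusted p = 0.989). Cd8b1 stood at 939, 841 and 630 CPM in the 41BB+ libraries and 701, 685 and 466 CPM in the 41BB- libraries (log2 fold change 0.41, SE 0.14, adjusted p = 0.035). Its groups overlapped, and the call was lost in a fit of the 72 h libraries alone at 0.48 (adjusted p = 0.0664), and without 41BB- replicate 3 at 0.25 (adjusted p = 0.223), 41BB+ replicate 1 at 0.34 (adjusted p = 0.119) or 41BB+ replicate 2 at 0.43 (adjusted p = 0.0677). Cd4 had 2 counts in all 41BB+ and 6 counts in all 41BB- libraries. Of 12 genes of CD8 T cell identity 4 were higher (Cd247, Cd3d, Lck and Cd8b1), 1 of them, Cd247, also without 41BB- replicate 3. Without that library Cd3d was at 0.36 (adjusted p = 0.0571) and Lck at 0.23 (adjusted p = 0.169), and Lck was not called without 41BB- replicate 2 at 0.27 (adjusted p = 0.112) or 41BB+ replicate 2 at 0.27 (adjusted p = 0.0972). The lower member, Tbx21, which encodes T-bet, was at 22.2, 35.2 and 25.6 CPM against 51.4, 51.2 and 39.9 CPM (log2 fold change -0.74, adjusted p = 0.0209), and was not called without 41BB+ replicate 1 or 3 or 41BB- replicate 1 or 2, at adjusted p of 0.131, 0.0864, 0.0703 and 0.0716.

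Of 13 myeloid and dendritic genes 9 had no count in any of the 6 libraries, Lyz2, Csf1r, Itgam and Cd14 among them, and the list summed to 2.96 to 4.66 CPM in 41BB+ and 2.11 to 4.36 CPM in 41BB- libraries. Erythroid and platelet genes were at 0 in 5 of 6 cases. The B cell list summed to 538 to 606 CPM in 41BB+ and 427 to 507 CPM in 41BB- libraries, and Ighm, the mu heavy chain gene, alone stood at 584, 547 and 521 CPM and 495, 476 and 417 CPM. None of its 6 tested members was called by edgeR, while 1 had an unadjusted p under 0.05 and 1, Ighm, was called by DESeq2 and, with the replicate block, by edgeR at 0.29 (adjusted p = 0.0192). Of the regulatory T cell markers, Foxp3, the lineage factor, was at 19.2, 25.3 and 9.70 CPM in 41BB+ and 7.90, 3.49 and 4.01 CPM in 41BB- libraries (log2 fold change 1.84, SE 0.55, adjusted p = 0.0177). The Foxp3 groups did not overlap, but the call was lost without 41BB- replicate 2 at 1.63 (adjusted p = 0.0776), 41BB- replicate 3 at 1.68 (adjusted p = 0.0709) or 41BB+ replicate 2 at 1.57 (adjusted p = 0.106). Of the 6 regulatory T cell markers 2 were higher, Foxp3 and Ikzf2, and 1, Il2ra, was lower, against 6.71% and 12.2% of all genes. The 6 summed to 1085 to 1281 CPM and 1053 to 1082 CPM, a sum in which members of opposite direction offset each other. Sums of the plasma cell list lay lower in 41BB+ cells, at 34.5 to 41.7 CPM against 62.2 to 86.6 CPM. Of its 4 tested members none was higher and 1 was lower (median -1.09), with 2 lower without 41BB- replicate 2. The called gene was Xbp1, a factor of secretory cells and of the unfolded protein response, at 22.5, 23.6 and 18.9 CPM against 43.7, 44.2 and 41.8 CPM (log2 fold change -0.96, SE 0.2, adjusted p = 0.00113), while Mzb1 had no count. Sums of the CD4 helper list were 37.2 to 45.7 CPM against 53.7 to 62.3 CPM, with 1 tested member higher and 1 lower of 4, and none was called without 41BB+ replicate 2 or 41BB- replicate 1. The part of these cells in the differences below was not tested.

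At 72 h, 883 genes were higher in 41BB+ cells, 6.71% of those tested, and 1602 were lower, 12.2%. The 2 directions together made up 18.9% of the genes tested, and 35.5% of the calls were higher. The median absolute log2 fold change was 0.72 among the higher and 0.76 among the lower genes. The estimated difference was at least 2-fold for 662 called genes, 239 of them higher and 423 lower. When a minimum of 2-fold was itself tested, 30 genes passed, 7 higher and 23 lower. The 3 libraries of one population lay entirely above those of the other for 793 of the 883 higher and 1532 of the 1602 lower genes. These genes were called on the same libraries, so a large share without overlap follows from that choice and is no separate support. The share over all tested genes is not given here. When only the 6 libraries of 72 h were fitted, 856 genes were higher and 893 lower, so that 48.9% of the calls were higher. With the replicate number added as a block to that fit, 48.8% were higher. The median log2 fold change of all tested genes was -0.04, and medians of gene groups are given beside this value.

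Gene groups were counted over the members that passed the filter on low counts. Every list count in this report is to be read beside the shares over all genes, 6.71% higher and 12.2% lower. Counts from the 72 h libraries alone are to be read beside the 856 higher and 893 lower genes of that fit. Gene groups with the largest shares of called members were metabolic and growth genes on the lower side and genes of resting T cells on the higher side, as the plot of called members per gene list shows. At least 70% of tested members were lower among genes of serine, folate and nucleotide synthesis, DNA replication, ribosome biogenesis, hypoxia response, translation initiation and glycolysis, against 12.2% of all genes. Over 50% of tested members were higher in the GIMAP family, naive surface markers, naive and memory transcription factors and the Ifi200 family, against 6.71% of all genes.

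**Figure D1:**
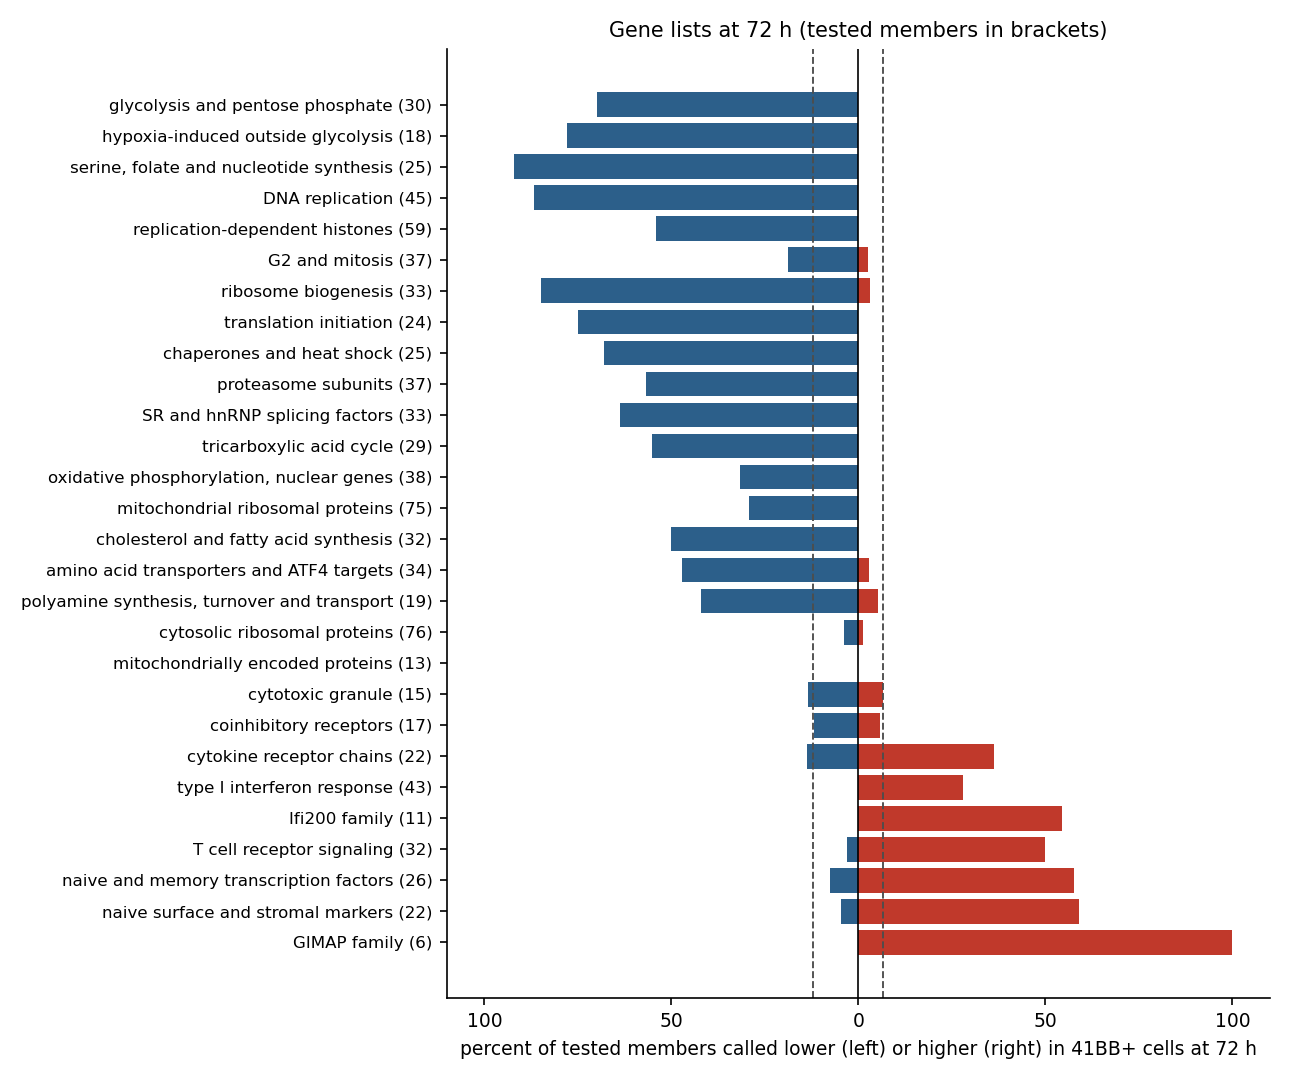
Percent of the tested members of each gene list that were lower (blue, to the left) or higher (red, to the right) in 41BB+ cells at 72 h by edgeR's quasi-likelihood test, with the number of tested members in brackets. Dashed lines mark the shares over all genes, 12.2% lower and 6.71% higher, and the metabolic and growth lists extend to the left while GIMAP, naive and Ifi200 lists extend to the right.

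Transcripts of glycolysis, which turns glucose into pyruvate and lactate, were lower in 41BB+ cells for most steps, while the activity of the pathway was not measured. Of 30 tested genes of glycolysis and the pentose phosphate pathway 21 were lower and none higher, with a median log2 fold change of -1.07, and 19 to 21 were lower when any 1 library was left out. Ldha stood at 449, 439 and 333 CPM in the 41BB+ libraries and 1024, 1456 and 1389 CPM in the 41BB- libraries (log2 fold change -1.63, SE 0.12, adjusted p = 9.21e-10; chr7:46841475-46855627 on GRCm38). Ldha encodes the lactate dehydrogenase chain that regenerates NAD+ from pyruvate, and every 41BB- library held over 2 times the CPM of every 41BB+ library. Tpi1, encoding triosephosphate isomerase, had the larger difference, at 67.5, 46.3 and 40.1 CPM against 211, 298 and 382 CPM (log2 fold change -2.50, SE 0.18, adjusted p = 2.54e-09; chr6:124810586-124814296). The aldolase gene Aldoa was at 276, 247 and 297 CPM against 689, 839 and 1169 CPM (log2 fold change -1.68, SE 0.14, adjusted p = 6.58e-09). In both genes the populations were clearly apart, 5.66-fold for Tpi1 and 3.21-fold for Aldoa.

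The later steps showed the same order. Eno1, the enolase gene, stood at 278, 251 and 193 CPM and 585, 706 and 798 CPM (log2 fold change -1.50, SE 0.13, adjusted p = 7.48e-09). Pkm, the pyruvate kinase gene, stood at 691, 526 and 516 CPM and 1231, 1474 and 1647 CPM (log2 fold change -1.29, SE 0.12, adjusted p = 9.29e-09). Slc16a3 encodes MCT4, a lactate exporter known as a hypoxia-induced gene. Slc16a3 stood at 2.74, 2.33 and 7.81 CPM in the 41BB+ libraries and 26.6, 63.9 and 119 CPM in the 41BB- libraries (log2 fold change -3.97, SE 0.62, adjusted p = 2.61e-04; chr11:120948480-120960868). Its 41BB- libraries were themselves far apart, and the log2 fold change was -3.34 without 41BB- replicate 3 and -4.69 without 41BB+ replicate 3, with the call kept. Among 9 members that were not called, looked at after their values were seen, were Hk1, the constitutive hexokinase (log2 fold change -0.23), Taldo1 of the pentose phosphate pathway (-0.20) and Pdk1, which restrains pyruvate entry into mitochondria (-0.19, adjusted p = 0.361). Hexokinase 2, phosphofructokinase and glucose transporter 1, looked at after their values were seen, were lower: Hk2 at -2.40 (adjusted p = 2.96e-06), Pfkl at -2.09 (adjusted p = 1.94e-08) and Slc2a1 at -1.89 (adjusted p = 2.26e-04). Without 41BB- replicate 3 the log2 fold change of Slc2a1 was -1.36 and that of Hk2 -1.96, both still called.

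**Figure D2:**
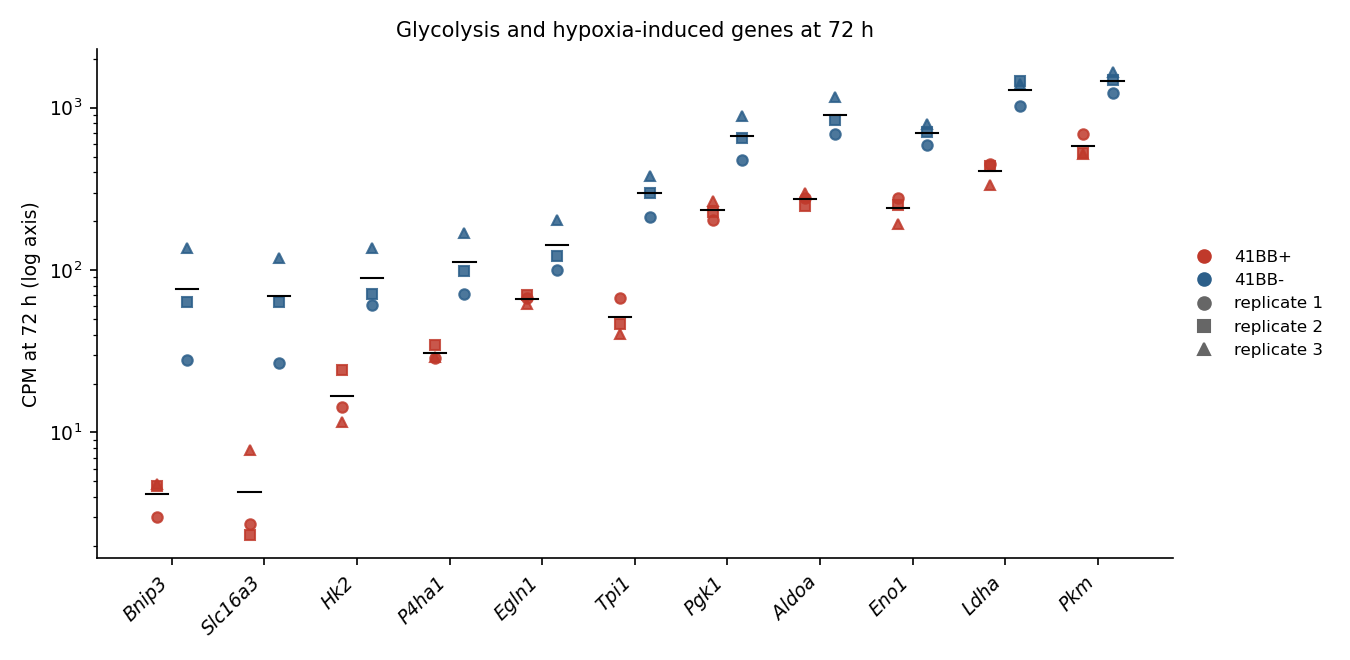
CPM at 72 h on a log axis of 11 genes of glycolysis and the hypoxia response in the 3 41BB+ (red) and 3 41BB- (blue) libraries, with black bars at the means and a marker shape for each replicate number. For every gene shown the 3 41BB- libraries lie above the 3 41BB+ libraries, and 41BB- replicate 3 is the highest library for all genes but Ldha.

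Genes known to be induced by low oxygen outside glycolysis had the lowest median of all lists with at least 10 tested members. Of 22 listed 18 were tested, and 14 were lower in 41BB+ cells and none higher, with a median log2 fold change of -1.66. The list summed to 528 to 577 CPM in 41BB+ and 695 to 1699 CPM in 41BB- libraries. The number of lower members depended on 1 library, since it was 9 without 41BB- replicate 3, and it was also 9 when only the 72 h libraries were fitted. Bnip3 encodes a mitochondrial protein of hypoxic mitophagy. Bnip3 stood at 3.02, 4.66 and 4.85 CPM in the 41BB+ libraries and 27.9, 63.9 and 136 CPM in the 41BB- libraries, a 17.7-fold difference (log2 fold change -4.15, SE 0.47, adjusted p = 3.03e-06; chr7:138890836-138909519). The 41BB+ libraries were all below 5 CPM and the 41BB- libraries ranged almost 5-fold among themselves. Ak4, a mitochondrial adenylate kinase, was at 0.274, 1.16 and 0 CPM against 6.32, 14.2 and 30.7 CPM (log2 fold change -5.07, SE 0.81, adjusted p = 6.18e-05; chr4:101419277-101466995).

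Vegfa, the angiogenic growth factor, was at 1.10, 1.75 and 2.15 CPM against 5.00, 10.5 and 24.5 CPM (log2 fold change -2.95, SE 0.56, adjusted p = 3.85e-04). Without 41BB- replicate 3 the log2 fold change was -3.42 for Bnip3, -4.33 for Ak4 and -2.15 for Vegfa, and all 3 calls were kept. Ak4 also moved without a 41BB+ library, to -6.59 without replicate 2 and -4.46 without replicate 3. P4ha1 encodes a collagen prolyl hydroxylase subunit. P4ha1 stood at 28.8, 34.6 and 29.4 CPM in the 41BB+ libraries and 70.9, 98.5 and 168 CPM in the 41BB- libraries (log2 fold change -1.83, SE 0.23, adjusted p = 4.26e-06; chr10:59323296-59373304). Egln1 encodes PHD2, the oxygen sensor that marks HIF-1 for decay and is itself induced by it. Egln1 stood at 67.2, 69.8 and 61.4 CPM in the 41BB+ libraries and 100, 122 and 204 CPM in the 41BB- libraries (log2 fold change -1.07, SE 0.19, adjusted p = 2.18e-04). Both genes had tight 41BB+ libraries and no overlap. Ankrd37 was at 9.88, 4.36 and 1.62 CPM against 15.3, 41.9 and 42.9 CPM (log2 fold change -2.62, SE 0.47, adjusted p = 2.26e-04). Without 41BB+ replicate 1 its log2 fold change was -3.40, and its call was lost when the 72 h libraries alone were fitted with a replicate block, at -2.52 (adjusted p = 0.173). Hif1a itself, looked at after its value was seen, was at 85, 85.5 and 110 CPM and 75.3, 88.7 and 101 CPM with overlap (log2 fold change 0.12, SE 0.15, adjusted p = 0.651).

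The promoters of these genes are shown because HIF-1 is known to bind a short core sequence. The core, taken here as ACGTG only, was searched on both strands (read as CACGT on the other) in the 250 bases before the RefSeq gene start, on GRCm38.p6. Variants of these letters were neither searched nor marked. It overlaps the E-box CACGTG, known as a site of MYC and related factors, and a CACGTG counts on both strands. RefSeq gave a promoter for 14 of the 18 hypoxia genes, and 8 of them held the core (57.1%), as did 9 of 29 glycolysis genes (31.0%), 28.0% of genes lower and 17.8% of genes higher in 41BB+ cells, 22.2% of the tested genes with a promoter (2045 of 9218) and 17.3% of all 20539 promoters. The E-box itself was in 1 of the 14, 3 of the 29 and 8.51% of the tested genes with a promoter. Ak4, Vegfa, Tpi1, Aldoa, Eno1 and Pkm had no match, which says only that these letters are not in this window. A match is a description of the sequence. Below, 250 bases of 4 genes run 5′ to 3′ towards the gene start, with the core in capitals. Bnip3 lies at chr7:138909507-138909756 on the minus strand, P4ha1 at chr10:59323046-59323295 on the plus strand, Hk2 at chr6:82774455-82774704 on the minus strand and Pgk1 at chrX:106186850-106187099 on the plus strand. Hk2 and Pgk1 were chosen after their values and sequences were seen. 
Bnip3: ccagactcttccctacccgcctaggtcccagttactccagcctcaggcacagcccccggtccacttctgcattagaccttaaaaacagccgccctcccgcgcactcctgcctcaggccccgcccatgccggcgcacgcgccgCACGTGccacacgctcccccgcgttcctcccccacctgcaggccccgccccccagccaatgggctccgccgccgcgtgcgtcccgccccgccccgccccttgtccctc
P4ha1: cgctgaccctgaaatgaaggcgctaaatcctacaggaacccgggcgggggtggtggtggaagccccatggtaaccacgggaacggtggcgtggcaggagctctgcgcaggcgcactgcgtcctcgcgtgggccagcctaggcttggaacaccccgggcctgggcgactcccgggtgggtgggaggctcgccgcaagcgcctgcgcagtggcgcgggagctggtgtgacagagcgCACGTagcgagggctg
Hk2: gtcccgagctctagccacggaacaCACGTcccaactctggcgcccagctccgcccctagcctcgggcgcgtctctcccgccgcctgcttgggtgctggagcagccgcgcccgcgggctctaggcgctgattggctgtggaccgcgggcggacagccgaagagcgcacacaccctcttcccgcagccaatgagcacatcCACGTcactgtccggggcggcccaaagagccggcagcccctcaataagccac
Pgk1: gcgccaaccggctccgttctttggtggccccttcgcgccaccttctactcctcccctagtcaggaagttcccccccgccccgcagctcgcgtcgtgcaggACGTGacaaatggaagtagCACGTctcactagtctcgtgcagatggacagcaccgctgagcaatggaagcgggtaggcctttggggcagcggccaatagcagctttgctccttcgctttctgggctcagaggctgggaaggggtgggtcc
Pgk1, which encodes the ATP-forming phosphoglycerate kinase, stood at 204, 228 and 268 CPM in the 41BB+ libraries and at 476, 646 and 888 CPM in the 41BB- libraries (log2 fold change -1.49, SE 0.17, adjusted p = 1.61e-06), and Hk2 at 14.3, 24.1 and 11.6 CPM and 61.1, 71.5 and 136 CPM. In both the 41BB- libraries were all higher.

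Synthesis of serine, folate intermediates and nucleotides had the largest share of lower members. Of 25 tested genes 23 were lower and none higher (median log2 fold change -0.91). Cad stood at 65, 74.5 and 49.8 CPM in the 41BB+ libraries and 213, 182 and 182 CPM in the 41BB- libraries (log2 fold change -1.58, SE 0.12, adjusted p = 1.41e-09; chr5:31054780-31078479). Cad encodes the enzyme of the first steps of pyrimidine synthesis, and every 41BB- library held over 2 times the CPM of every 41BB+ library. Mthfd1, a folate enzyme that supplies carbon for purines, was at 41.1, 43.9 and 25.9 CPM against 123, 120 and 115 CPM (log2 fold change -1.66, SE 0.14, adjusted p = 5.93e-09). Psat1, of serine synthesis, was at 48.8, 46.3 and 41.8 CPM against 91.1, 128 and 136 CPM (log2 fold change -1.34, SE 0.15, adjusted p = 3.44e-07). The purine enzymes Atic and Gart differed by -1.20 and -1.24 on the log2 scale (adjusted p = 3.19e-07 and 4.87e-07).

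DNA replication followed. Of 45 tested genes 39 were lower, none higher, and all 45 had a negative log2 fold change (median -0.76), and 32 to 36 were lower when any 1 library was left out. Mcm2, a subunit of the replicative helicase, stood at 119, 114 and 93.7 CPM in 41BB+ and 223, 229 and 233 CPM in 41BB- libraries (log2 fold change -1.03, SE 0.11, adjusted p = 2.63e-07; chr6:88883474-88898780). Mcm3, Mcm5 and the DNA polymerase delta gene Pold1 differed by -0.91, -0.78 and -0.98 (adjusted p = 1.16e-06, 9.63e-06 and 9.57e-06). Uhrf1, which keeps DNA methylation through replication, was at 226, 172 and 200 CPM against 363, 410 and 385 CPM (log2 fold change -0.92, SE 0.12, adjusted p = 4.51e-06). Its partner Dnmt1, the maintenance methyltransferase, was at 512, 410 and 511 CPM against 752, 746 and 738 CPM (log2 fold change -0.61, SE 0.1, adjusted p = 1.30e-04). Ezh2, the Polycomb methyltransferase, was lower, at -0.62 (adjusted p = 0.00481). Of 22 Polycomb, DNA methylation and TET genes 7 were lower and 1, Tet3, higher at 0.46 (adjusted p = 0.00192), against 12.2% and 6.71% of all genes. Without 41BB+ replicate 1 or 3 that list had 3 or 2 higher members.

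Of 37 tested G2 and mitosis genes 7 were lower and 1 higher (median -0.36), against the 12.2% of all genes that were lower, and 34 of the 37 log2 fold changes were negative. The count of lower genes was 15 with the replicate block and 15 by limma voom, and it was 4 without 41BB+ replicate 3, 3 without 41BB- replicate 1 and 1 without 41BB+ replicate 2 or 41BB- replicate 2. The checkpoint kinase gene Bub1b was at 192, 146 and 187 CPM against 273, 273 and 277 CPM, without overlap (log2 fold change -0.61, SE 0.13, adjusted p = 8.23e-04). Mki67, the widely used marker of cycling cells, looked at after its values were seen, was at 1877, 1388 and 1774 CPM against 2453, 2070 and 2256 CPM (log2 fold change -0.39, SE 0.23, adjusted p = 0.281), and with the replicate block its adjusted p was 0.001. Replication-dependent histone genes, transcribed in S phase, were lower for 32 of 59 tested (median -0.67), and their close copies make single values uncertain. That count was 49 with the block, 14 without 41BB+ replicate 1 or 2, 19 without 41BB+ replicate 3 and 10 without 41BB- replicate 2.

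Regulators of growth and of the G1 phase were lower for 13 of 28 tested genes and higher for 3 (median -0.51). Myc, the transcription factor that drives T cell growth, was at 16.7, 24.7 and 18.3 CPM in 41BB+ and 67.7, 53.8 and 51.2 CPM in 41BB- libraries (log2 fold change -1.50, SE 0.14, adjusted p = 3.29e-08; chr15:61985391-61990374). Every 41BB- library held at least 2 times the CPM of every 41BB+ library. The MYC antagonists Mxd4 and Mxd1, which bind the same partner and repress, were higher, while another of this kind, Mxi1, was lower, at -1.11 (adjusted p = 0.00829) and chosen after its value was seen. Mxd4 stood at 155, 162 and 185 CPM in the 41BB+ libraries and 84.6, 88.9 and 71.7 CPM in the 41BB- libraries (log2 fold change 1.07, SE 0.2, adjusted p = 4.92e-04), and Mxd1 differed by 0.92 (adjusted p = 0.00339). The G1 kinases Cdk6 and Cdk4 were lower, at -1.17 (adjusted p = 2.34e-05) and -0.62 (adjusted p = 7.42e-04). Of the kinase inhibitors, Cdkn1a, which encodes p21 and is induced by p53 and by growth signals, was lower, at 5.49, 4.95 and 2.15 CPM against 17.9, 15.1 and 24.3 CPM (log2 fold change -2.15, SE 0.4, adjusted p = 3.62e-04).

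Genes of ribosome assembly, translation initiation, protein folding and degradation were lower in 41BB+ cells more often than the 12.2% of all genes. Of 33 ribosome biogenesis genes 28 were lower (median -0.88). Ncl, encoding nucleolin, stood at 888, 914 and 859 CPM in 41BB+ and 1769, 1586 and 1900 CPM in 41BB- libraries (log2 fold change -0.95, SE 0.082, adjusted p = 6.58e-09; chr1:86344719-86359400). Fbl, the methyltransferase fibrillarin, was at 71.9, 59.1 and 42.6 CPM against 146, 144 and 124 CPM (log2 fold change -1.22, SE 0.14, adjusted p = 4.87e-07). The only higher member was Wdr12, at 236, 224 and 101 CPM against 120, 115 and 71.2 CPM, whose groups overlapped. Its log2 fold change of 0.90 (adjusted p = 0.0137) was not called without 41BB- replicate 3, at 0.70 (adjusted p = 0.0509), or with the 72 h libraries alone, at 0.97 (adjusted p = 0.118).

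Of 24 translation initiation genes 18 were lower (median -0.53), such as the helicase gene Eif4a1 and the scaffold gene Eif4g1, at -0.94 and -0.91 (adjusted p = 6.85e-07 and 9.83e-07). Among chaperones 17 of 25 were lower (median -0.57). Hsp90aa1 stood at 317, 310 and 232 CPM in the 41BB+ libraries and 851, 863 and 1001 CPM in the 41BB- libraries (log2 fold change -1.63, SE 0.11, adjusted p = 1.09e-10; chr12:110690605-110702728), and the mitochondrial chaperonin gene Hspd1 was at 89.4, 98 and 69.8 CPM against 245, 271 and 265 CPM (log2 fold change -1.57, SE 0.11, adjusted p = 4.22e-10). In both genes the lowest 41BB- library held over 2 times the highest 41BB+ library. Of 37 proteasome subunits 21 were lower (median -0.52), with Psmd1 at -0.79 and Psmd2 at -0.77 (adjusted p = 2.56e-05 and 2.99e-05). Splicing factors of the SR and hnRNP families were lower for 21 of 33 (median -0.40), 13 without 41BB+ replicate 3 and 12 with the 72 h libraries alone. Of 76 cytosolic ribosomal protein genes 1 was higher and 3 were lower (median -0.02), under the shares of all genes, with at most 2 higher and 3 lower when 1 library was left out. Many of these genes, like Eif5a, Npm1 and Ldha, have close processed copies elsewhere in the genome, so their values are uncertain.

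Of 29 tricarboxylic acid cycle genes 16 were lower (median -0.43), against 12.2% of all genes, and 9 were lower with the 72 h libraries alone. That fit called fewer genes lower over all genes as well, 893 against 1602. Idh3a, an isocitrate dehydrogenase subunit, was at 61.2, 47.7 and 48.5 CPM against 116, 108 and 83.3 CPM (log2 fold change -0.93, SE 0.14, adjusted p = 1.59e-05). Of 38 nuclear genes of oxidative phosphorylation 12 were lower (median -0.37), against the same 12.2%, and 5 were lower with the 72 h libraries alone. The ATP synthase gene Atp5b stood at 422, 380 and 319 CPM in 41BB+ and 705, 713 and 641 CPM in 41BB- libraries (log2 fold change -0.84, SE 0.1, adjusted p = 1.09e-06). Of 75 mitochondrial ribosomal protein genes 22 were lower (median -0.48), also against 12.2%, with 12 lower without 41BB+ replicate 3 and 10 with the 72 h libraries alone. None of the 13 protein genes encoded in mitochondrial DNA was called by edgeR (median -0.03), none by DESeq2, and 1 had an unadjusted p under 0.05. With the replicate block 1 was lower, as it was without 41BB- replicate 3. The mitochondrial share of counts, higher in all 41BB+ libraries, also holds ribosomal RNA. In the fit without mitochondrial genes, ribosomal protein genes and Gm23935, 2 named genes lost and 2 gained a call. The part of the mitochondrial share in these results was not tested beyond that fit.

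Of 32 lipid synthesis genes 16 were lower (median -0.66). Idi1 and Hmgcs1, of the cholesterol pathway, differed by -1.05 and -0.86 (adjusted p = 4.65e-05 and 5.79e-05), and Acaca, which commits acetyl units to fatty acids, by -0.76 (adjusted p = 1.04e-04). Fabp5, a fatty acid carrier, had a larger difference, at 14.5, 18.9 and 6.46 CPM against 53, 54.4 and 71.9 CPM (log2 fold change -2.14, SE 0.23, adjusted p = 2.81e-07; chr3:10012548-10016607). Of 17 fatty acid oxidation genes 3 were lower, against 12.2% of all genes. In the redox list, 9 of 25 were lower and 1 higher, against 12.2% and 6.71% of all genes. The higher gene was Txnip, which restrains glucose uptake and thioredoxin and is induced by glucose, at 174, 237 and 343 CPM against 113, 103 and 113 CPM (log2 fold change 1.24, SE 0.22, adjusted p = 6.21e-04). Prdx1, a peroxide-removing enzyme, was lower at 68.9, 78.8 and 55 CPM against 158, 139 and 142 CPM (log2 fold change -1.08, SE 0.12, adjusted p = 5.45e-07). The 2 genes differed in opposite directions with no overlap in either.

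Amino acid transporters and targets of the stress factor ATF4 were lower for 16 of 34 (median -0.54). Slc7a5, the large neutral amino acid transporter that activated T cells need, was at 33.2, 49.5 and 23.4 CPM against 131, 120 and 114 CPM (log2 fold change -1.75, SE 0.16, adjusted p = 2.76e-08; chr8:121881150-121907694). The tRNA-charging enzymes Eprs, Iars and Gars differed by -0.98, -1.12 and -0.79 (adjusted p = 1.09e-06, 1.85e-06 and 6.75e-06). Slc43a1, another neutral amino acid transporter, was the higher member, at 55.1, 67.2 and 55.8 CPM against 21.9, 16.9 and 13.2 CPM (log2 fold change 1.81, SE 0.29, adjusted p = 5.86e-05). Polyamines are small cations needed for growth. Of 19 tested genes of their metabolism and transport 8 were lower and 1 higher (median -0.48). Srm, spermidine synthase, was at 13.2, 20.1 and 5.66 CPM against 42.4, 38.1 and 25.9 CPM (log2 fold change -1.42, SE 0.32, adjusted p = 0.00446), while Sat1, which acetylates polyamines for export, was at 67.8, 79.1 and 47.1 CPM against 35.8, 37.5 and 26.2 CPM (log2 fold change 1.00, SE 0.22, adjusted p = 0.00146). Neither pair of groups overlapped. Odc1, the first enzyme of the pathway, was at 71.9, 83.2 and 45.2 CPM against 122, 104 and 94.8 CPM (log2 fold change -0.65, SE 0.25, adjusted p = 0.088). By edgeR it was called lower with the replicate block (adjusted p = 0.0038) and with no filter on low counts (adjusted p = 0.012). With the 72 h libraries alone it was called at adjusted p = 0.047, and at 0.0026 with a block added. It was not called by DESeq2 or limma voom, or when any 1 library was left out. Eif5a, the translation factor that carries the polyamine-derived residue hypusine, was at 312, 303 and 155 CPM against 583, 670 and 533 CPM (log2 fold change -1.18, SE 0.17, adjusted p = 3.85e-05).

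Of genes of activated T cells, Tnfrsf9, Il2ra and Gzmb were lower in 41BB+ cells. Tnfrsf9, the gene of the sort marker, was at 18.4, 33.8 and 11.6 CPM in the cells sorted as 41BB+ and at 44, 51.7 and 61.3 CPM in those sorted as 41BB- (log2 fold change -1.28, SE 0.23, adjusted p = 3.54e-04; chr4:150914562-150946102). At 72 h its order was thus opposite to the labels of the sort, which were given at 0 h, when it stood at 373, 421 and 374 CPM and 4.96, 6.81 and 8.45 CPM. Il2ra, the high-affinity chain of the interleukin 2 receptor, was at 156, 260 and 107 CPM against 404, 414 and 403 CPM (log2 fold change -1.19, SE 0.21, adjusted p = 6.50e-04). Gzmb, the gene of the cytotoxic protease granzyme B, was at 256, 356 and 117 CPM against 729, 595 and 491 CPM (log2 fold change -1.29, SE 0.34, adjusted p = 0.0164). The Gzmb groups did not overlap, but the call was lost with the 72 h libraries alone at -1.23 (adjusted p = 0.153), without a filter on low counts at -1.25 (adjusted p = 0.0527) and without 41BB- replicate 1 at -1.14 (adjusted p = 0.0572). Of 15 tested cytotoxic granule genes 2 were lower and 1 higher, against 12.2% and 6.71% of all genes, and 1 was lower without 41BB+ replicate 2 or any of the 41BB- replicates. The higher gene was Srgn, the proteoglycan that packs granules, at 125, 131 and 140 CPM against 77.4, 81.1 and 82.3 CPM (log2 fold change 0.75, SE 0.12, adjusted p = 7.73e-05). Prf1, the perforin gene, looked at after its values were seen, was under 5 CPM in all 6 libraries (log2 fold change -0.12, SE 0.55, adjusted p = 0.92).

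Of 13 tested effector cytokine and chemokine genes 1 was higher and 2 lower, against the same shares of all genes, and none was lower without 41BB+ replicate 1 or 3 or 41BB- replicate 1. Ltb, encoding lymphotoxin beta, was the higher member, at 187, 220 and 163 CPM against 134, 135 and 103 CPM (log2 fold change 0.65, SE 0.16, adjusted p = 0.00466). Among 17 coinhibitory receptors 1 was higher and 2 lower, against 6.71% and 12.2% of all genes. None was lower without 41BB+ replicate 1 or 3 or 41BB- replicate 1 or 3, and 1 was lower without 41BB+ replicate 2 or 41BB- replicate 2. None was lower with RLE scaling factors or with no filter on low counts. With 41BB+ replicate 1 or 2 left out, 2 were higher. Vsir, encoding VISTA, an inhibitory receptor of resting T cells, was at 266, 273 and 236 CPM against 138, 137 and 116 CPM (log2 fold change 1.02, SE 0.12, adjusted p = 8.63e-07; chr10:60346851-60372684). Lag3 was lower, at -0.60 (adjusted p = 0.0424), a call that leaving out any 1 library ended, with adjusted p from 0.0602 to 0.249. Pdcd1, encoding PD-1 and looked at after its values were seen, was at 15.1, 14.8 and 27.2 CPM against 18.2, 21.5 and 17.7 CPM with overlap (log2 fold change 0.04, SE 0.24, adjusted p = 0.942). In the TNF receptor family and its ligands 5 of 24 genes were higher and 4 lower, against 6.71% and 12.2% of all genes. The counts were 3 and 1 without 41BB- replicate 3, with 2 lower without 41BB+ replicate 1 or 2. Tnfrsf26 and Cd27 were higher, by 0.92 and 0.53 (adjusted p = 0.00129 and 0.00448). Cd27, a costimulatory receptor of naive and memory cells, was at 170, 148 and 152 CPM against 130, 108 and 96.7 CPM.

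Of 27 tested transcription factors of effector cells and exhaustion 6 were lower and 2 higher, against 12.2% and 6.71% of all genes. Irf4, whose level tracks T cell receptor signal strength, was at 29.6, 40.1 and 32.3 CPM against 85.9, 94.5 and 124 CPM (log2 fold change -1.54, SE 0.18, adjusted p = 1.43e-06; chr13:30749226-30766976). Batf3 was at 1.65, 0.873 and 0.539 CPM against 6.85, 9.30 and 9.20 CPM (log2 fold change -2.98, SE 0.74, adjusted p = 0.00456). Bhlhe40, a repressor known in cytokine production and also induced by hypoxia, was at 3.29, 9.02 and 5.66 CPM against 20.8, 31.7 and 85.2 CPM (log2 fold change -2.92, SE 0.6, adjusted p = 0.00391). Without 41BB- replicate 3 the log2 fold change of Bhlhe40 was -2.10, and it was not called by limma voom with quality weights, at -2.62 (adjusted p = 0.063). Ikzf2, the gene of Helios, went the other way, at 629, 535 and 443 CPM against 231, 182 and 200 CPM (log2 fold change 1.43, SE 0.19, adjusted p = 1.80e-05; chr1:69531214-69687245). It was 1 of 28 genes higher at both 0 h and 72 h, with a log2 fold change of 1.53 at 0 h (adjusted p = 5.41e-06) and 1.29 at 24 h (adjusted p = 0.00106). The count of lower factors was 3 without 41BB+ replicate 1 or 3, and that of higher factors was 1 without 41BB+ replicate 1 or 3 or 41BB- replicate 2 or 3.

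Cytokine receptor chains divided by subunit. Of 22 tested 8 were higher and 3 lower, against 6.71% and 12.2% of all genes. The higher count was 5 without 41BB+ replicate 3, 41BB- replicate 2 or 41BB- replicate 3 and 4 with the 72 h libraries alone. The lower count was 6 with the replicate block and 6 without 41BB+ replicate 3. Il7r, the receptor chain through which resting T cells receive survival signals, was at 251, 382 and 387 CPM in 41BB+ and 169, 145 and 140 CPM in 41BB- libraries (log2 fold change 1.20, SE 0.22, adjusted p = 8.14e-04; chr15:9505788-9530176). Ifngr1, the interferon gamma receptor, was at 296, 436 and 546 CPM against 200, 173 and 213 CPM (log2 fold change 1.16, SE 0.28, adjusted p = 0.0105). Il12rb1, which effector cells use to sense interleukin 12, was lower, at 8.78, 7.27 and 11.3 CPM against 21.9, 22.1 and 36.8 CPM (log2 fold change -1.52, SE 0.24, adjusted p = 4.06e-05). Il18rap, of the interleukin 18 receptor, was lower, at -1.05 (adjusted p = 7.39e-04). Downstream of these receptors, the kinase gene Jak1 was higher by 0.63 and Stat5b by 0.61 (adjusted p = 8.10e-05 and 9.84e-04).

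Transcription factors of naive and memory T cells were higher in 41BB+ cells for 15 of 26 tested genes and lower for 2 (median 0.63). Lef1, which with TCF-1 upholds the naive and memory state, was at 544, 598 and 777 CPM in 41BB+ and 328, 306 and 333 CPM in 41BB- libraries (log2 fold change 1.03, SE 0.14, adjusted p = 7.23e-06; chr3:131110471-131224356). Btg1, a quiescence factor that promotes mRNA deadenylation, was at 250, 323 and 285 CPM against 130, 118 and 82.1 CPM (log2 fold change 1.41, SE 0.14, adjusted p = 2.07e-07; chr10:96617006-96622809). Klf3, a repressor of the Kruppel-like family, was at 112, 97.2 and 123 CPM against 66.4, 55.5 and 39.9 CPM (log2 fold change 1.08, SE 0.16, adjusted p = 1.52e-05). In all 3 genes the lowest 41BB+ library lay above the highest 41BB- library. Satb1, a chromatin organizer of T cells, and Slfn2, which guards T cell quiescence, were higher by 0.66 and 0.81 (adjusted p = 6.36e-05 and 5.06e-05). Tcf7, encoding TCF-1, and Bach2, a repressor of effector genes, both looked at after their values were seen, were higher by 0.61 (adjusted p = 3.21e-04) and 0.91 (adjusted p = 1.44e-04). Tcf7 was at 2051, 1751 and 1708 CPM against 1309, 1369 and 1016 CPM. The lower members were the histone demethylase gene Kdm6b at -0.74 (adjusted p = 8.06e-04) and the E protein gene Tcf3 at -0.42 (adjusted p = 0.013). The Tcf3 call was lost without 41BB- replicate 1 at -0.34 (adjusted p = 0.0794), 41BB+ replicate 2 at -0.38 (adjusted p = 0.0593) or 41BB+ replicate 3 at -0.34 (adjusted p = 0.0823).

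**Figure D3:**
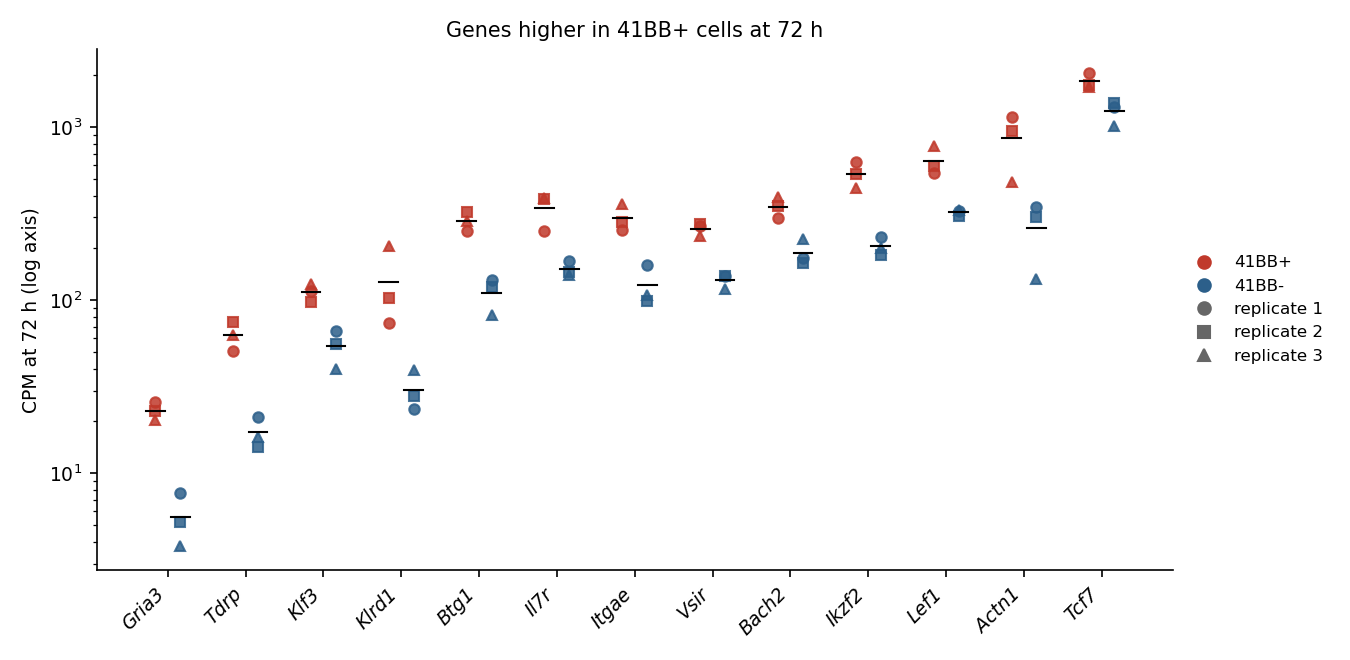
CPM at 72 h on a log axis of 13 genes that were higher in 41BB+ cells, in the 3 41BB+ (red) and 3 41BB- (blue) libraries, with black bars at the means and a marker shape for each replicate number. For each gene the 3 red markers lie above the 3 blue ones, with the widest spread within a population for Actn1 and Klrd1.

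Surface and cytoskeletal markers of naive cells were higher for 13 of 22 and lower for 1 (median 0.63). Tdrp was at 50.8, 74.2 and 62.8 CPM against 21.1, 14.2 and 16.3 CPM (log2 fold change 1.89, SE 0.19, adjusted p = 7.41e-08). Actn1, encoding alpha-actinin, was at 1147, 947 and 478 CPM against 344, 301 and 133 CPM (log2 fold change 1.76, SE 0.32, adjusted p = 0.00167), with replicate 3 the lowest in both populations, and it was not called in a fit of the 72 h libraries alone, at 1.82 (adjusted p = 0.107). S1pr1, the receptor by which T cells leave lymph nodes, was at 157, 192 and 270 CPM against 105, 77.6 and 98.1 CPM (log2 fold change 1.17, SE 0.26, adjusted p = 0.00489). The lower member was Igfbp4, at 2.47, 5.82 and 6.20 CPM against 12.4, 20.9 and 17.4 CPM (log2 fold change -1.77, SE 0.33, adjusted p = 4.26e-04), a secreted binding protein for insulin-like growth factors. Among 17 chemokine receptor and egress genes 5 were higher and 2 lower, against 6.71% and 12.2% of all genes. The higher count ran from 1 without 41BB- replicate 3 to 4 without 41BB+ replicate 1, with 3 without any 1 of the other 4 libraries. The lower count was 1 without 41BB+ replicate 1 or 2 or 41BB- replicate 3 and 3 without 41BB+ replicate 3. Ccr4, a homing receptor of activated cells, was lower, at 2.47, 8.44 and 2.42 CPM against 17.9, 13.1 and 17.2 CPM (log2 fold change -1.83, SE 0.4, adjusted p = 0.00146), and its log2 fold change was -2.61 without 41BB+ replicate 2.

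Adhesion and costimulatory genes were higher for 8 of 29 and lower for 1, against 6.71% and 12.2% of all genes. The lower count was 5 without 41BB+ replicate 3 and 3 with the replicate block. Itgae, encoding CD103, the integrin chain of epithelium-associated T cells, was at 255, 280 and 360 CPM in 41BB+ and 160, 98.2 and 107 CPM in 41BB- libraries (log2 fold change 1.33, SE 0.15, adjusted p = 8.33e-07; chr11:73090583-73147446). Slamf6, a receptor of T cells that keep the capacity to divide, was at 282, 304 and 275 CPM against 179, 155 and 154 CPM (log2 fold change 0.85, SE 0.12, adjusted p = 1.00e-05). Like Ikzf2, Slamf6 was higher at all 3 times, with log2 fold changes of 0.34 at 0 h and 0.69 at 24 h (adjusted p = 0.026 and 0.00221). Slamf7, a receptor of cytotoxic cells, was lower, at 1.92, 4.95 and 9.43 CPM against 12.1, 16 and 48.6 CPM (log2 fold change -2.20, SE 0.54, adjusted p = 0.0103). It was not called with the 72 h libraries alone, at -2.12 (adjusted p = 0.0747), and its log2 fold change was -1.32 without 41BB- replicate 3 and -2.85 without 41BB+ replicate 3. Klrd1, encoding CD94, an inhibitory or activating partner of NKG2 receptors, was at 73.5, 102 and 205 CPM against 23.4, 27.9 and 39.1 CPM (log2 fold change 2.11, SE 0.31, adjusted p = 1.04e-04).

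Signaling from the T cell receptor was represented by 32 tested genes, of which 16 were higher and 1 lower (median 0.31). The adaptor gene Sla2, which lowers receptor signaling, was at 95.8, 143 and 151 CPM against 57.7, 60.2 and 47.4 CPM (log2 fold change 1.27, SE 0.19, adjusted p = 2.49e-05). Dgka, which removes the messenger diacylglycerol, was at 791, 819 and 965 CPM against 567, 576 and 542 CPM (log2 fold change 0.65, SE 0.1, adjusted p = 3.32e-05). Genes that carry the signal were higher too: Cd247, encoding the zeta chain, by 0.58, and Prkcq, encoding protein kinase C theta, by 0.63 (adjusted p = 2.18e-04 and 1.44e-04). The lower gene was Ptpn6, encoding the phosphatase SHP-1, at 170, 167 and 149 CPM against 277, 277 and 274 CPM (log2 fold change -0.73, SE 0.12, adjusted p = 3.85e-05). Calcium entry genes Orai1 and Orai2 were higher by 0.98 and 0.82 (adjusted p = 3.45e-04 and 7.57e-04). They were among 4 higher and 1 lower of 24 ion channel and calcium genes, against 6.71% and 12.2% of all genes, with 2 higher without 41BB- replicate 2. Of 18 NF-kB genes 6 were higher, and 3 were without 41BB+ replicate 1 or 41BB- replicate 2. Nfkb2 and Rel, both subunits, were higher by 0.61 and 0.55 (adjusted p = 0.00879 and 0.00505). Of 11 mRNA decay factors 5 were higher, with Zfp36l1 at 0.52 (adjusted p = 0.00211). Of 26 tested genes of the BCL2 family and cell death 2 were higher and 3 lower (median -0.015), against 6.71% and 12.2% of all genes. Leaving out single libraries moved these counts, to 1 and 1 without 41BB+ replicate 3 and to 1 higher without 41BB- replicate 2 or 3. Mcl1, a survival factor of that list, was higher by 0.53 (adjusted p = 4.76e-04).

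The GIMAP family, GTPases that support survival of resting lymphocytes and lie in 1 cluster on chromosome 6, was higher in all 6 tested members (median 0.80). Gimap3 was at 386, 421 and 378 CPM against 243, 208 and 189 CPM (log2 fold change 0.92, SE 0.12, adjusted p = 2.08e-06; chr6:48764464-48770851), and Gimap6 at 359, 334 and 252 CPM against 197, 179 and 105 CPM (log2 fold change 1.01, SE 0.16, adjusted p = 8.51e-05). Gimap4, Gimap8 and Gimap9 were higher by 0.67, 0.74 and 0.84 (adjusted p = 7.02e-04, 7.62e-05 and 0.00171). Gimap5, with overlapping groups, was higher by 0.76 (adjusted p = 0.0221). It was not called without 41BB- replicate 2 at 0.74 (adjusted p = 0.0642), 41BB- replicate 3 at 0.58 (adjusted p = 0.126) or 41BB+ replicate 1 at 0.64 (adjusted p = 0.0878). Gimap1 and Gimap7 had no counts at 72 h. Pecam1, encoding CD31, which naive T cells as well as endothelium display, was at 207, 221 and 281 CPM against 121, 111 and 106 CPM (log2 fold change 1.11, SE 0.19, adjusted p = 1.88e-04), and the other 5 genes of the stromal and endothelial list stayed under 2 CPM in every library.

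Interferon-related genes were higher in part. Type I interferon genes were higher for 12 of 43 tested and lower for none (median 0.74), 7 without 41BB+ replicate 3. Iigp1, an immunity-related GTPase, was at 39, 71.3 and 75.2 CPM against 27.7, 21.8 and 22.2 CPM (log2 fold change 1.41, SE 0.24, adjusted p = 1.45e-04). Ddx58, encoding the RNA sensor RIG-I, was at 57.1, 64.3 and 70.6 CPM against 27.1, 30.5 and 36.3 CPM (log2 fold change 1.06, SE 0.23, adjusted p = 0.00135). Samhd1, which limits free nucleotides, was at 511, 628 and 679 CPM against 370, 372 and 377 CPM (log2 fold change 0.74, SE 0.14, adjusted p = 4.97e-04). Isg15, looked at after its values were seen, had at most 0.708 CPM in any library. With the replicate block 1 member was lower. In the Ifi200 family of nucleic acid sensors and related proteins, 6 of 11 tested genes were higher and none lower (median 0.88), with 1 lower without 41BB+ replicate 3. Ifi209 was at 85.6, 165 and 132 CPM against 46.9, 47.4 and 39.9 CPM (log2 fold change 1.55, SE 0.31, adjusted p = 0.00226). Ifi213 was at 22.5, 33.8 and 68.1 CPM against 12.4, 4.36 and 7.78 CPM (log2 fold change 2.37, SE 0.54, adjusted p = 0.00762; chr1:173566283-173599274), and Ifi208 at 30.7, 43.4 and 83.8 CPM against 15.8, 15.4 and 16.5 CPM (log2 fold change 1.76, SE 0.42, adjusted p = 0.00928; chr1:173673675-173698395). The groups of these 3 genes did not overlap, and 41BB+ libraries ranged up to 3-fold among themselves. Ifi213 and Ifi211 are close copies, so their values are uncertain.

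Factors activated by interferon bind the interferon-stimulated response element, taken here as GAAA and GAAA with 2 bases of any kind between them, on either strand. It was found in the 250 bases before the RefSeq start (GRCm38.p6) of 16 of 30 interferon genes (53.3%) and 7 of 10 Ifi200 genes (70.0%) with a promoter in the table. It was in 4.87% of genes higher and 2.01% of genes lower in 41BB+ cells, 2.74% of tested genes with a promoter and 2.97% of all promoters. Ddx58, Samhd1, Irf1, Ifit2, Ifi203 and Ifi209 had no match in this window. The promoters of Ifi206, Ifi208 and Ifi213 are close copies of each other around the match, so the 7 Ifi200 genes are not 7 separate observations. The promoters of 2 Ifi200 genes, chosen because they hold a match, are shown with the element in capitals, Ifi208 at chr1:173673415-173673664 on the plus strand and Ifi213 at chr1:173599273-173599522 on the minus strand. 
Ifi208: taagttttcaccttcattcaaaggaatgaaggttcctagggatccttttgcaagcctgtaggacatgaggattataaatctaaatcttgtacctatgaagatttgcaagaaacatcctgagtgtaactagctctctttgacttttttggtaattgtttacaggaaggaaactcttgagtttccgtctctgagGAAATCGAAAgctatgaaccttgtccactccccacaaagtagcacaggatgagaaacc
Ifi213: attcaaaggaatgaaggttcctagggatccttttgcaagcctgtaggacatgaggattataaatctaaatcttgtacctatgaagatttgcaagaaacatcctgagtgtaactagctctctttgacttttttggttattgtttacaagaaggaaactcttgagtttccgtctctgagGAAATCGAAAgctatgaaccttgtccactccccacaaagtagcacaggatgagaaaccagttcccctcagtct

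Among the genes with the largest fold differences on the higher side, many had low levels. Gria3, encoding a glutamate receptor subunit, was at 25.8, 23 and 20.2 CPM against 7.64, 5.23 and 3.77 CPM (log2 fold change 2.09, SE 0.36, adjusted p = 1.45e-04; chrX:41400854-41678601). Prss12, a secreted protease, was at 6.86, 14.6 and 11 CPM against 1.32, 1.45 and 2.59 CPM (log2 fold change 2.58, SE 0.58, adjusted p = 0.00216). Cnga1, a cyclic nucleotide-gated channel subunit, was at 15.9, 11.3 and 8.62 CPM against 2.37, 2.33 and 2.59 CPM (log2 fold change 2.31, SE 0.47, adjusted p = 8.07e-04). None of these 3 genes overlapped between populations. Boll, Sh2d4b and Kalrn were higher by 2.88, 2.24 and 2.21 at levels under 11 CPM (adjusted p = 9.51e-04, 0.00427 and 0.00434). On the lower side, Sema7a, a membrane semaphorin of activated T cells, was at 2.74, 2.62 and 0.808 CPM against 11.3, 14.5 and 11.6 CPM (log2 fold change -2.55, SE 0.38, adjusted p = 1.83e-05).

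Called genes differed in length and kind. The median span of a gene in the genome was 40.9 kb among the higher, 18.0 kb among the lower and 22.2 kb among the other tested genes. In 4 equal groups of genes ordered by span, from short to long, the median log2 fold change at 72 h was -0.14, -0.11, -0.06 and 0.12, while at 0 h it was 0.31, 0.13, -0.0098 and -0.26. Of 928 tested processed pseudogenes 6 were higher and 122 lower, of 298 lincRNA genes 18 higher and 4 lower, and of 261 antisense genes 21 higher and 3 lower. Over all genes 6.71% were higher and 12.2% lower. The 122 lower pseudogenes, 18 higher lincRNA and 21 higher antisense genes were near those percentages, and the counts in the other direction were under them. Processed pseudogenes took 2.84% to 3.22% of counts in 41BB+ and 3.46% to 3.75% in 41BB- libraries. Malat1, a long RNA kept in the nucleus, was at 1946, 2191 and 2564 CPM against 1420, 1269 and 1656 CPM (log2 fold change 0.66, SE 0.14, adjusted p = 0.0016). The part of these shares in the gene groups above was not tested.

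Most genes called at 72 h were not called at 24 h and were called in the opposite direction at 0 h. At 24 h, after the same culture but a shorter one, 220 genes were higher in 41BB+ cells (1.67%) and 141 lower (1.07%). At 0 h, 2916 were higher (22.2%) and 2276 lower (17.3%). Of the 883 genes higher at 72 h, 614 were lower, 28 higher and 241 not called at 0 h, and 96 were lower, 9 higher and 778 not called at 24 h. Of the 1602 genes lower at 72 h, 1237 were higher, 31 lower and 334 not called at 0 h, and 91 were higher, 4 lower and 1507 not called at 24 h. The difference itself, tested as an interaction, changed between 24 h and 72 h for 2297 genes (17.5%) and between 0 h and 72 h for 5378 genes (40.9%). These held 584 and 807 of the 883 higher genes and 1207 and 1469 of the 1602 lower genes. Both interaction tests contain the 72 h difference by which the 883 and 1602 genes were chosen. A large overlap follows from that choice and is no separate support.

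**Figure D4:**
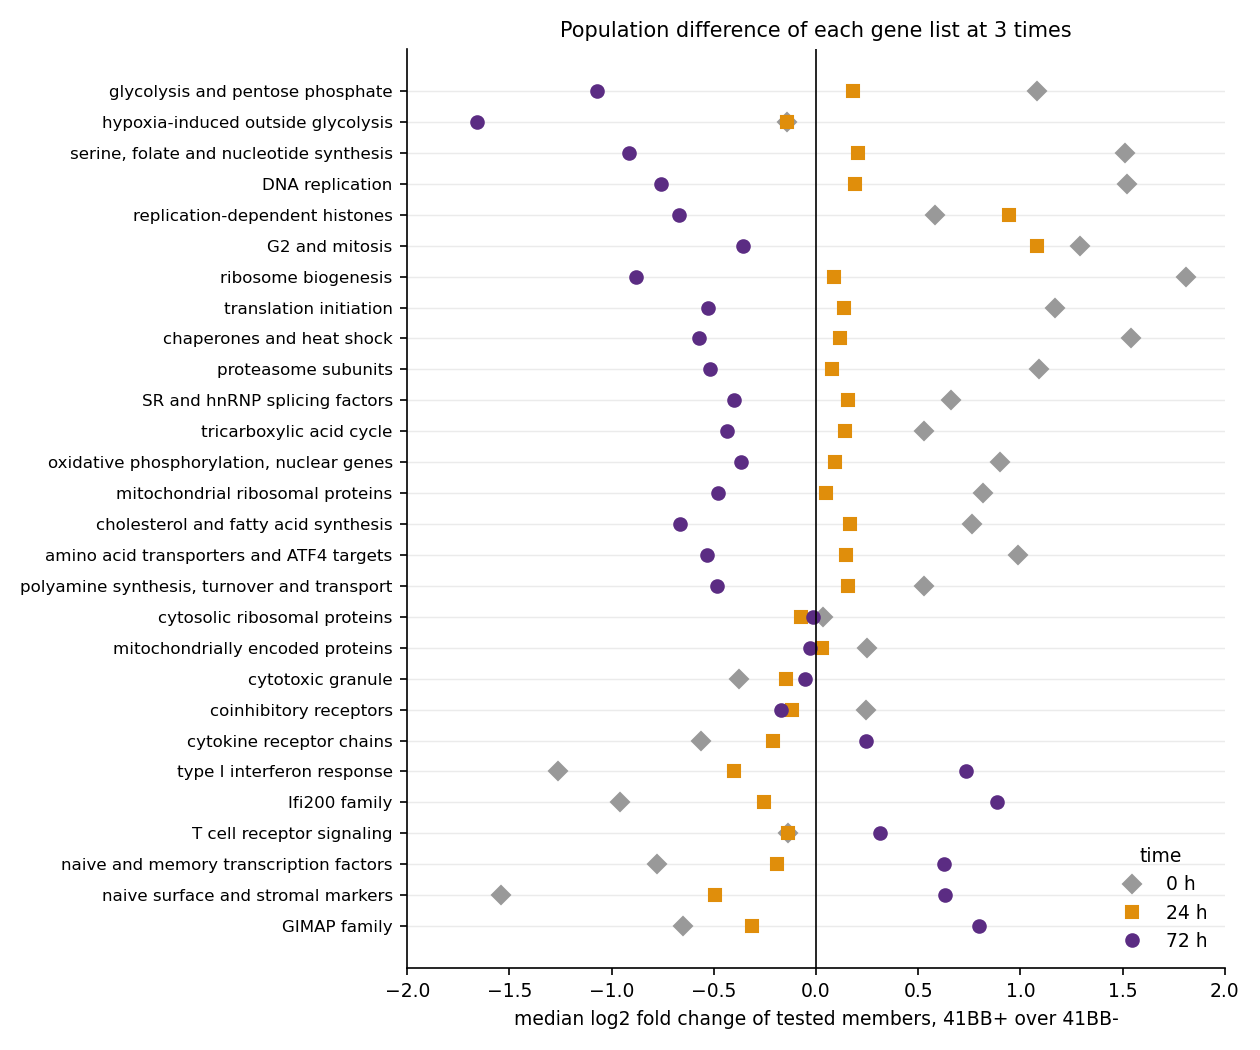
Median log2 fold change of the tested members of each gene list, 41BB+ over 41BB-, at 0 h (grey diamonds), 24 h (orange squares) and 72 h (purple circles). For glycolysis the medians are 1.08, 0.18 and -1.07 and for naive surface markers -1.54, -0.49 and 0.63, while the hypoxia list lies near 0 at 0 h and 24 h and at -1.66 at 72 h.

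Levels at the earlier times were compared with those at 72 h for the genes in the plot over time. Ldha stood at 1178, 1167 and 1305 CPM in 41BB+ and 1097, 1006 and 1278 CPM in 41BB- libraries at 24 h, so that the 41BB- level at 72 h was in the same range and the 41BB+ level was lower. Its difference changed by -1.86 on the log2 scale from 24 h to 72 h (adjusted p = 3.71e-08). Myc at 24 h was at 305, 328 and 316 CPM and 351, 388 and 372 CPM, and it was lower in both populations at 72 h, with a change of the difference of -1.39 (adjusted p = 5.28e-06). Bnip3 at 24 h was at 5.10, 5.04 and 2.04 CPM and 4.47, 3.31 and 5.68 CPM, and at 0 h at 6.19, 4.29 and 4.47 CPM and 1.55, 3.89 and 3.62 CPM. Only the 41BB- libraries of 72 h were above 10 CPM for Bnip3, among the 18 libraries. Il7r at 24 h was at 43.4, 48.2 and 22.2 CPM and 163, 144 and 122 CPM, and at 0 h at 38, 46.1 and 57.9 CPM and 416, 378 and 439 CPM, so the 41BB+ libraries were the lower ones at both earlier times and the higher ones at 72 h.

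Gzmb at 24 h was at 98.6, 188 and 141 CPM in 41BB+ and 19.8, 20.6 and 36.1 CPM in 41BB- libraries (log2 fold change 2.60, adjusted p = 0.00281), the opposite order to 72 h. Itgae at 0 h was at 89, 70.4 and 78.4 CPM and 212, 230 and 230 CPM, at 24 h at 31.8, 28.6 and 25.8 CPM and 63.5, 69.3 and 53.1 CPM, and only at 72 h were the 41BB+ libraries higher. Replication-dependent histone genes were higher for 40 of 59 at 24 h and lower for 32 at 72 h, and G2 and mitosis genes were higher for 29 of 37 at 24 h and lower for 7 at 72 h. The difference changed downward from 24 h to 72 h for 56 of the 59 histone genes and 35 of the 37 mitotic genes, against 1495 of all 13150 genes. Of the mitotic kinases, Aurka went from 1.82 at 24 h (adjusted p = 3.85e-06) to -0.57 at 72 h (adjusted p = 0.0379), where the call was lost without 41BB- replicate 1 or 2 or 41BB+ replicate 1 or 2, at adjusted p of 0.0896, 0.135, 0.144 and 0.177.

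**Figure D5:**
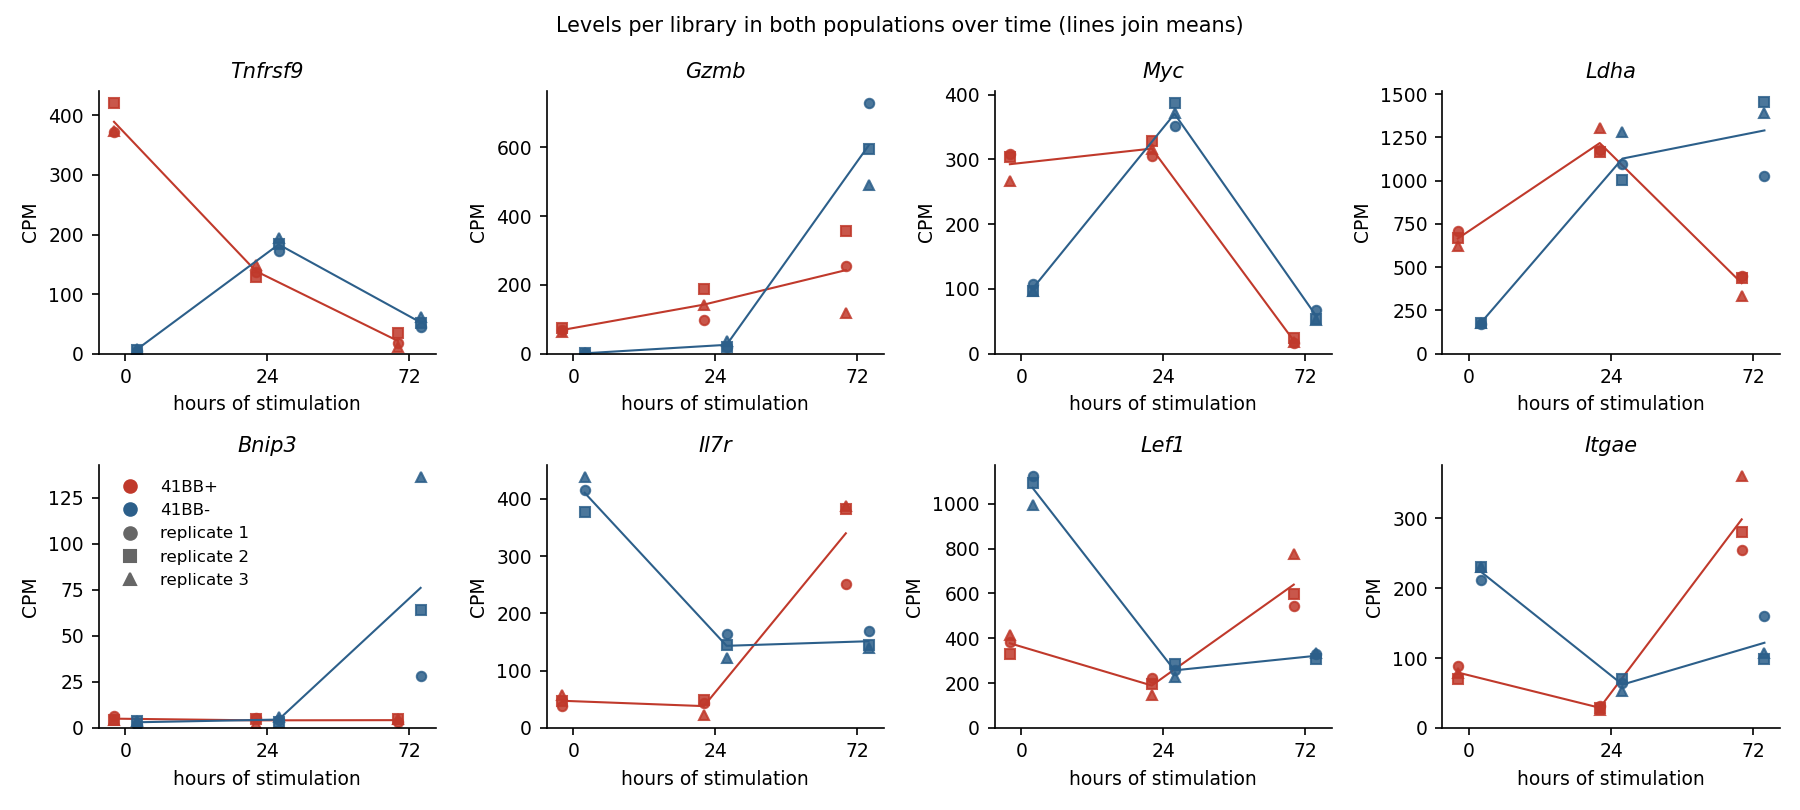
CPM per library of 8 genes at 0, 24 and 72 h of stimulation in 41BB+ (red) and 41BB- (blue) cells, with lines through the means and a marker shape for each replicate number. Tnfrsf9, Gzmb and Ldha are higher in 41BB+ cells at 0 h and lower at 72 h, Il7r, Lef1 and Itgae are lower at 0 h and higher at 72 h, and Bnip3 is above 10 CPM only in 41BB- cells at 72 h.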

How the data were processed

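RNA of sorted mouse CD8+ T cells was made into libraries with a strand-keeping total RNA kit (SMARTer v2), per the labels' protocols. The authors deposited 1 table of raw counts per gene for 18 libraries. The submitters' processing notes name FastQC 0.11.9, Trimmomatic 0.38, HISAT2 2.2.1, featureCounts and the build GRCm38. The strand setting and the handling of reads with several matches were not found in these sources, so overlapping, antisense and near-identical genes are uncertain. Gene symbols and positions came from GENCODE M21 (GRCm38), which matched 55227 of 55487 identifiers, and promoter sequences from RefSeq (GRCm38.p6).

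Libraries were grouped by population and time from their labels. Genes with enough counts (edgeR's filterByExpr by group, minimum count 10, total 15) were kept, scaled by TMM and fitted with edgeR 4.0.16 (R 4.3.3, robust quasi-likelihood) with 1 mean for each of the 6 groups, so that all 18 libraries shared the estimate of spread. Contrasts were 41BB+ against 41BB- at each time and the change of that difference from 24 h or 0 h to 72 h, with Benjamini-Hochberg adjustment over 13150 genes and a threshold of 0.05. The fitting code was tested on simulated data. Alternatives were DESeq2 1.42.0, limma voom 3.58.1 with quality weights, RLE factors, no filter, a replicate block, the 72 h libraries alone and a tested minimum of 2-fold. Others were removal of mitochondrial genes, ribosomal protein genes and Gm23935 together, and each library left out in turn.

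The replicate numbers are the experiment numbers in the titles, which is where the pairing comes from. At 72 h the deviations of same-numbered libraries from their group means correlated, over 9796 genes, at 0.11, 0.0861 and 0.32, against -0.234 to 0.138 for other numbers. No 2 libraries of a group agreed within sampling noise (chi-square per degree of freedom 5.52 to 8.59). Named genes were Tnfrsf9, Cd8a, Cd8b1, Cd4 and Foxp3, and the 15 largest called fold changes in each direction with at least 5 CPM in the higher group and no overlap. Up to 5 called members of each list in each direction by smallest adjusted p were added, with every member of lists under 13. The last were the 5 largest changes of the difference in each direction among genes called in that contrast and at 72 h. These also had to reach 5 CPM at 72 h without overlap, and both rankings left out predicted genes. The gene lists and the genes named were chosen with earlier results of these data known, and genes outside that rule are marked where they appear. Some genes under this rule are not reported here.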

Additional observations from a re-analysis of the deposited data

Results flagged for a closer look

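The difference between 41BB+ and 41BB- cells was itself different at 72 h from that at the earlier times, by an interaction test in edgeR. From 24 h to 72 h it shifted towards 41BB+ for 802 genes and towards 41BB- for 1495. From 0 h to 72 h it shifted towards 41BB+ for 2318 genes and towards 41BB- for 3060. Both comparisons use the same 72 h libraries. The shifts given next are the largest only among genes also called at 72 h, with at least 5 CPM there and no overlap. Larger shifts of other genes were not looked at.

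Between 24 h and 72 h the log2 fold change of Ifi213, a member of the Ifi200 family with a close copy, shifted by 4.36. The shifts were 4.01 for Nacc2, 4.0 for Tmem140, 3.97 for the channel gene Cnga1 and 3.86 for the protease gene Prss12. Downward, the mitochondrial adenylate kinase gene Ak4 shifted by -5.0 and Acsl6, which activates long fatty acids, by -4.72. The transcription factor gene Batf3 shifted by -4.69, the lactate exporter gene Slc16a3 by -4.15 and the mitophagy gene Bnip3 by -4.12.

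Between 0 h and 72 h the shifts were 4.52 for Ifi213, 4.5 for the insulin signaling adaptor gene Irs2, 4.47 for Gria3, 4.45 for Prss12 and 4.44 for Tdrp. Downward, the replication gene Mcm10 shifted by -9.6, a fitted value that depends on the prior count because the 41BB- libraries of 0 h held no count of it. Gzmb shifted by -7.58, the sort marker gene Tnfrsf9 by -7.11, Sema7a by -6.82 and the fatty acid carrier gene Fabp5 by -6.13. The sort itself was made on 41BB at 0 h, so the 0 h value of Tnfrsf9 was set by the sort.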

How the results depend on the processing

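No gene named in the report that was called changed sign under any alternative, and of 286 named genes called at 72 h, 196 were called under every alternative apart from the 2-fold minimum. When a difference of at least 2-fold was itself tested, 30 genes passed, 7 higher and 23 lower. With the 72 h libraries alone 893 genes were lower. With the replicate block, using experiment numbers as pairs, 1096 were higher and 1880 lower, and 2 named genes lost and 7 gained a call. Leaving out 1 library of 72 h gave 638 to 960 higher and 1142 to 1362 lower genes and ended 28 to 46 named calls. DESeq2 called 1088 and 1593 genes, voom 766 and 1285, RLE scaling 974 and 1437, and no filter 957 and 1293. Totals near 3436920 counts limit low genes: at 3 counts a gene is under 1 CPM.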
